A study of Drosophila melanogaster with 78 samples.

Results

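CG17646 (FBgn0264494) is a gene of the Drosophila ABCG family of membrane transporters, and 5 circular RNAs (circRNAs) with different ends were assigned to it. The set was chosen by the gene name in the deposited tables and holds all circRNAs listed under it, 5 of the 1211 circRNAs of both tables together. The total RNA table held 3 of them among 1194 circRNAs, and the polysome table held all 5 among 206. The gene itself was selected on its number of circRNAs and their reads, so that number and the levels below are descriptions. Of 666 host genes in total RNA, 62 had more circRNAs than CG17646, 49 had 3, itself included, and 418 had 1. In the polysome table it had the most of 167 host genes, of which 137 had 1.

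The libraries came from once-mated females of 2 genotypes. dilp 2-3,5 mutants lack the genes of the insulin-like peptides dilp2, dilp3 and dilp5 in all their cells and had been backcrossed to the control stock, and wDah, an outbred white-eyed stock that carries Wolbachia, was that control. Brain, thorax without gut, gut with Malpighian tubules and abdominal fat body without gut and ovaries were sampled at days 10, 30 and 50 of age, with 3 biological replicates per genotype, tissue and age, which gave 72 total RNA libraries. Another 6 libraries held polysome RNA of fat bodies at day 10, 3 per genotype. The day 10 samples were generated apart from the older ones, so batch and age cannot be told apart where day 10 is compared with a later age. Over all circRNAs a brain library held 16637 to 38812 circular reads, a thorax library 2016 to 8016, a gut library 503 to 2871, a fat body library 1954 to 8344 and a polysome library 1019 to 2059. In mutant brains Ilp2, Ilp3 and Ilp5 reached at most 0.580, 0.0601 and 0.168 FPKM, against at least 101, 28.3 and 62.9 FPKM in wDah brains.

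A circRNA forms when the spliceosome joins the end of an exon back to the start of an exon upstream, which closes the RNA into a ring. Only reads over this backsplice junction tell the ring from the linear transcript, and without free ends such RNAs tend to be long-lived. ABCG proteins join an ATP-binding part to a membrane part and work in pairs, which move substrates such as sterols and other lipids in mammals and eye pigment precursors in flies. The fat body is the fly's organ for fat storage, the counterpart of liver and adipose tissue.

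The gene lies on chromosome 2L:1732524-1750612 of BDGP6, on the plus strand, with 12 exons and 2 annotated transcripts. FBtr0077885 and FBtr0077886 differ in their first exon and share the other 11, and the start codon lies in exon 2, at 2L:1741701-1741703. Each circRNA is named here by its first and last exon. circ2-3 spans 2L:1741660-1742260, circ2-5 spans 2L:1741660-1743779 and circ2-8 spans 2L:1741660-1746029, and all of them begin at exon 2. circ4-5 spans 2L:1743345-1743779 and circ6-8 spans 2L:1744923-1746029, and both were listed in the polysome table only. The junctions below are what tells the 5 RNAs apart in reads: lower case marks the last 15 bases of the last exon, capitals the first 15 bases of the exon it is joined to, and the final line shows the start codon in capitals with its surroundings. They were read on the plus strand from the RefSeq genome of the same assembly.
circ2-3: gatgtccggattttgATACCCCTTCTGACT
circ2-5: ggatgagccgacgacATACCCCTTCTGACT
circ2-8: gccaagcgaaactacATACCCCTTCTGACT
circ4-5: ggatgagccgacgacCTCCACTGGCGTGTC
circ6-8: gccaagcgaaactacTGGCCTGGACAGCTC
start codon: ccgtgcaaacATGaccctcttgc

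Sites were reused among these RNAs. circ2-3, circ2-5 and circ2-8 share the start of exon 2, circ2-5 and circ4-5 share the end of exon 5, and circ2-8 and circ6-8 share the end of exon 8. All 5 had ends exactly at annotated exon ends with AG before and GT after them, as had 89.9% (exon ends) and 98.1% (AG and GT) of all circRNAs of the total RNA table. Their ends lie at introns 1, 3, 5 and 8, which are the 4 longest of the 11 introns. Intron 1 has 9005 bases, or 3640 from the start of the other transcript, and introns 3, 5 and 8 have 1084, 1143 and 1662 bases. The other 7 introns have 59 to 913 bases. Over all circRNAs of the total RNA table the median intron upstream had 2960 bases and the median intron downstream 2395. Pairing of inverted repeats across flanking introns is a known route to backsplicing. The longest inverted match between the 200 bases on both sides was 8, 7, 9, 6 and 10 bases in the order of the list above, and over all circRNAs the median was 8 and the 10th to 90th percentile 7 to 10.

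With introns removed, circ2-3 would have 535 bases from 2 exons, circ2-5 877 bases from 4, circ2-8 1568 bases from 7, circ4-5 342 bases from 2 and circ6-8 691 bases from 3. Reads over the junction do not show which inner exons are kept, so these lengths are those of the annotation. The start codon of CG17646 lies inside the circRNAs that begin at exon 2 and outside circ4-5 and circ6-8. Read from it, the frame runs to the junction without a stop for 494, 836 and 1527 bases in circ2-3, circ2-5 and circ2-8. It closes 1, 13 and 45 bases past the junction, so the stop codon of circ2-3 is made up across the junction. The coding part of the linear transcript has 2301 bases.

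**Figure D1:**
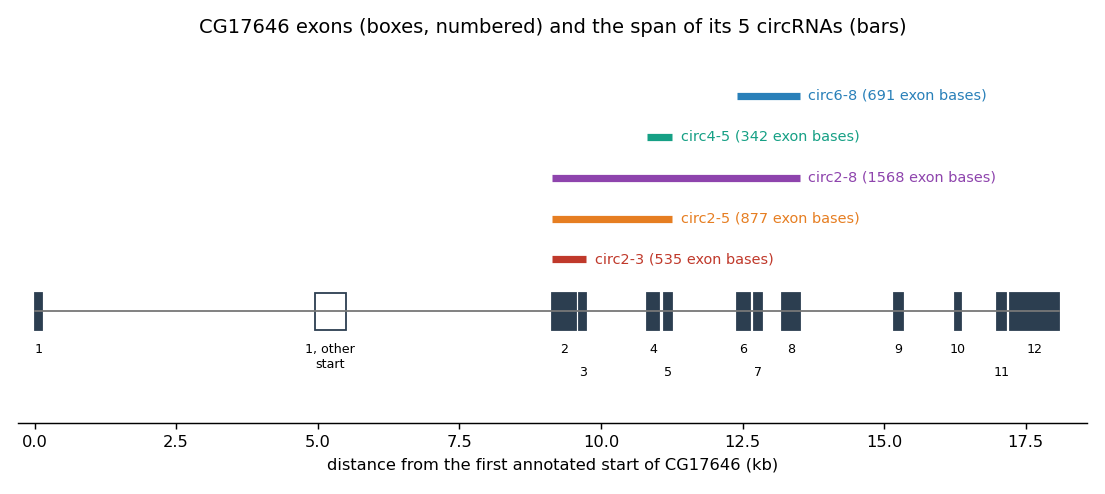
Exons of CG17646 (boxes, numbered) and introns (line) to scale by distance from the first annotated base (x axis, kb), with the first exon of the other transcript as an open box and the 5 circRNAs as bars from first to last exon. Of the 5, 3 begin at exon 2, which holds the start codon, and the ends of all 5 lie at the 4 longest introns.

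circ2-3 was the most abundant. Over the 72 total RNA libraries it had 2928 circular reads, between 2 and 203 per library and at least 1 in every library. circ2-5 had 1034 circular reads and was at 0 in 4 libraries, and circ2-8 had 418 and was at 0 in 12. A count of 0 in these libraries limits reads over the junction and not expression. Linear reads at the ends of the 3 members were close to each other, with a median of 0.94 times the circ2-3 count for circ2-5 and 1.02 times for circ2-8. Their ratios of circular to linear reads therefore share most of their denominator and are not independent measurements.

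In fat body circ2-3 was among the most abundant circRNAs of any gene. Per 10000 circular reads of a library it had a median of 285 in fat body (155 to 379, n = 18), 56.1 in thorax (38.4 to 89.3), 56.0 in gut (25.0 to 107) and 9.58 in brain (4.66 to 19.6). Fat body stood above all other libraries and brain below them, and thorax and gut overlapped. Ranked by circular reads over the libraries of a genotype, age and tissue, it was between 2nd and 5th in fat body. In brain it was between 96th and 261st of the 1155 to 1165 circRNAs with a read. circ2-5 followed the same order, with medians of 123 in fat body, 18.6 in thorax, 8.18 in gut and 2.19 in brain. circ2-8 had medians of 50.2 in fat body, 4.81 in thorax, 5.33 in gut and 0.693 in brain, and thorax and gut overlapped for both. Unlike circ2-3, both also overlapped elsewhere: circ2-5 between gut (0 to 45.7) and brain (0.999 to 4.04), and circ2-8 between fat body (23.7 to 107) and gut (0 to 30.4) and between brain (0 to 2.45) and both gut and thorax.

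How far fat body exceeded brain depended on the denominator. The median of circ2-3 was 29.8 times higher in fat body than in brain per 10000 circular reads, and 3.58 times higher per 10000 circular and linear reads together. Brain libraries held many more circular reads of other genes. In bulk tissue, more cells of a type and more RNA per cell cannot be told apart.

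**Figure D2:**
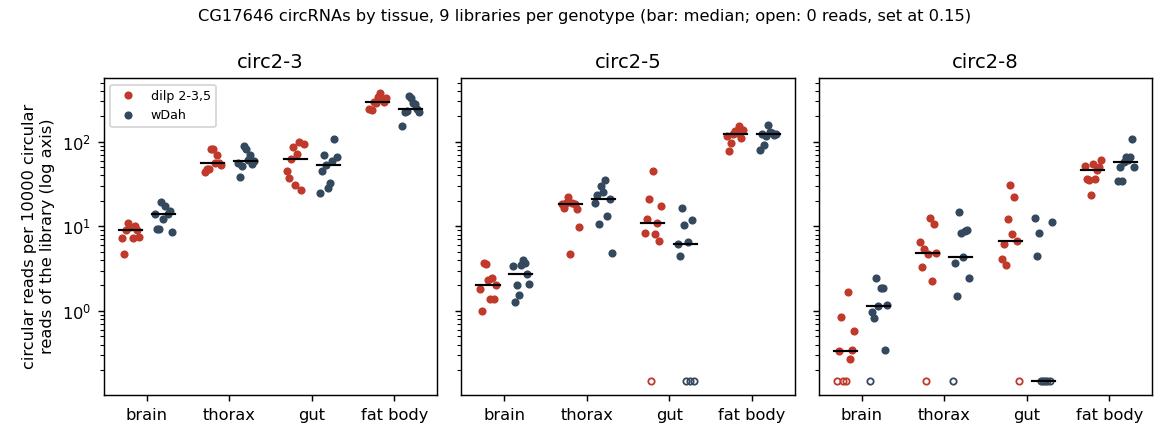
Circular reads of circ2-3, circ2-5 and circ2-8 per 10000 circular reads of a library (y axis, log scale) by tissue, dilp 2-3,5 left of wDah, each point 1 library with the ages together, bars at medians, and open points at the bottom for libraries with 0 reads. Fat body libraries of circ2-3 lie between 155 and 379 and brain libraries between 4.66 and 19.6.

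The mix of the 3 RNAs was described by tissue, with no test. circ2-3 made up 77.0% of the gene's circular reads in brain, 71.1% in thorax, 76.2% in gut and 62.4% in fat body. circ2-8 made up 5.8% in brain, 6.8% in thorax, 8.8% in gut and 11.3% in fat body. Over single libraries the circ2-3 share ran from 66.7% to 83.9% in brain and from 52.2% to 69.7% in fat body, which overlap.

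The linear transcripts were highest in fat body as well. FPKM, fragments scaled by transcript length and library size, was deposited as 1 pooled value per group, without a value per library. The sum of both transcripts was 209 to 338 FPKM in fat body, 68.9 to 115 in thorax, 43.0 to 68.2 in brain and 13.3 to 25.1 in gut, over the 6 groups of a tissue. These ranges do not overlap. The tissue labels were read against marker genes. The 4 neuron, 4 muscle and 4 gut markers were highest in brain, thorax and gut, with no overlap between tissues. Of 2 glia markers repo was highest in brain, while moody overlapped between all tissues, at 8.30 to 16 FPKM in brain and 9.01 to 14.5 FPKM in thorax. Of 3 fat body markers FASN1 (listed as CG3523) was highest in fat body without overlap, and apolpp (listed as Rfabg) reached its highest value there but overlapped with brain and thorax. The larval serum protein gene Lsp2 was not, at 0.836 to 10.3 FPKM in fat body, against 8.32 to 237 FPKM in brain. The 3 fat body markers summed to 873 to 1682 FPKM in brain and to 3127 to 7228 FPKM in fat body, and none was at 0. The ovary markers osk and nos reached 54.1 and 64.7 FPKM in fat body. The part of such cells in the levels of CG17646 was not tested.

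Both transcripts were listed in all tissues. FBtr0077885, with the upstream first exon, made up 22.1% to 52.3% of the gene's FPKM in fat body, 10.1% to 53.3% in brain, 19.4% to 51.6% in gut and at most 21.7% in thorax. In thorax at day 10 it was at 0.000983 FPKM in dilp 2-3,5 and 0.00581 FPKM in wDah, while FBtr0077886 was at 68.9 FPKM in dilp 2-3,5 and 79.4 FPKM in wDah. In dilp 2-3,5 brain its share was 10.1% (day 10), 53.3% (day 30) and 46.4% (day 50). In wDah brain it was 11.7%, 46.8% and 33.0% at the same ages. Here too day 10 differs from the later ages in batch. The 95% limits deposited with the values were wide: in fat body of dilp 2-3,5 at day 10 FBtr0077885 was at 57.5 FPKM with limits of 0 and 126. In thorax its limits also reached 0 at later ages. They were 0 and 21.8 FPKM in dilp 2-3,5 at day 30, and 0 and 29.4 FPKM at day 50. In wDah thorax they were 5.82 and 44.0 FPKM at day 30 and 0 and 25.9 FPKM at day 50. All circRNAs begin downstream of both first exons and cannot be traced to one of the transcripts.

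**Figure D3:**
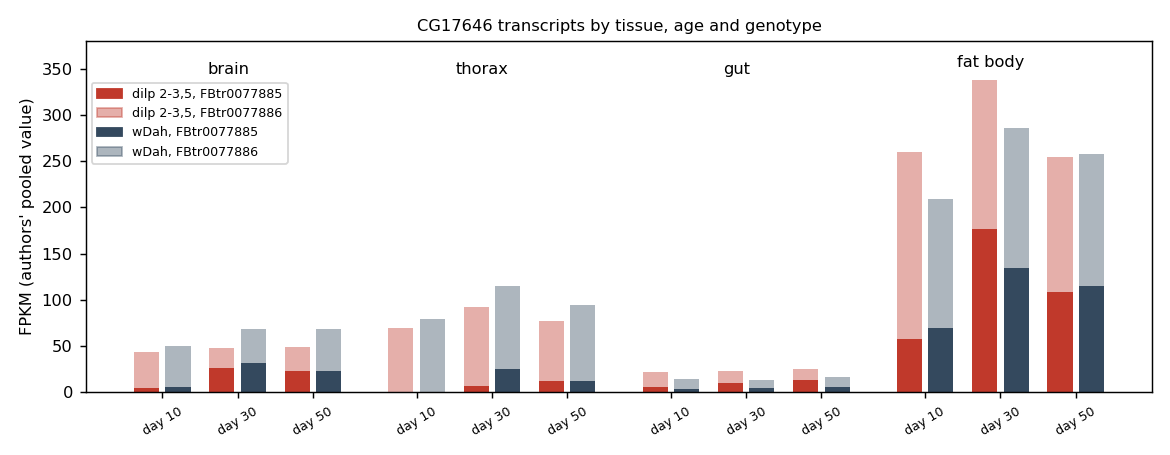
Pooled FPKM of FBtr0077885 (dark) and FBtr0077886 (light), stacked to the sum of the gene (y axis), by tissue, age and genotype, dilp 2-3,5 left of wDah and without error bars. Fat body had the highest sums, 209 to 338 FPKM, and FBtr0077885 was near 0 in thorax at day 10.

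Whether loss of the insulin-like peptides altered these circRNAs was tested as the ratio of circular to linear reads, with edgeR's quasi-likelihood F test and Benjamini-Hochberg adjustment over all circRNAs of a comparison. In fat body at day 10, circ2-3 was higher in dilp 2-3,5 mutants. It had 203, 125 and 193 circular reads with 473, 408 and 350 linear reads in mutants, against 50, 95 and 80 circular reads with 403, 368 and 449 linear reads in wDah. The ratios were 0.429, 0.306 and 0.551 in mutants and 0.124, 0.258 and 0.178 in wDah, without overlap. The log2 ratio was 1.21 higher (SE 0.39, adjusted p = 0.0431, n = 3 per genotype). In this comparison 3.95% of 354 circRNAs passed, and the median over all was a log2 difference of 0.81, so most circRNAs lay on the same side. Summed markers of other cell types differed between these pooled groups, with none of the listed genes at 0. The 4 neuron markers summed to 30.8 FPKM in mutant and 15.2 FPKM in wDah fat body. Most of these sums was Syt1, which reached 29.3 FPKM over the fat body groups. There elav, nSyb and brp reached at most 2.25, 1.10 and 0.495 FPKM. The 4 muscle markers summed to 195 and 153 FPKM in mutants and wDah. In the same order the 4 gut markers summed to 73.5 and 1540 FPKM, and the 3 ovary markers to 59.8 and 100.3 FPKM. The part of these markers in the result was not tested.

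The other members lay on the same side at day 10 but did not pass. The ratios of circ2-5 were 0.207, 0.102 and 0.197 in mutants and 0.0591, 0.134 and 0.0668 in wDah, with overlap (log2 difference 0.99, adjusted p = 0.120). circ2-8 differed by 0.93 (adjusted p = 0.201). The call of circ2-3 rested on single libraries: it held in 2 of 6 fits that left out 1 library. It was lost without dilp 2-3,5 replicate 1 (adjusted p = 0.226) or 3 (0.277), and without wDah replicate 1 (0.207) or 3 (0.180). Without replicate 2 of either genotype all 3 members passed, with log2 differences of 1.48, 1.38 and 1.35 without the wDah library (adjusted p = 0.00799, 0.0192 and 0.0420) and of 1.42, 1.28 and 1.18 without the mutant library (adjusted p = 0.00289, 0.0134 and 0.0448). The share of all circRNAs that passed in these fits is not given, so the calls are not set against it. With circular and linear reads scaled apart, a measure relative to the other circRNAs, no member passed.

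At later ages and in other tissues the genotypes were not told apart. For circ2-3 in fat body the log2 difference was 0.32 at day 30 and 0.17 at day 50. Of 30 tests of a member over 12 comparisons, 1 passed, and 4 had an unadjusted p under 0.05. Of all circRNAs, 0.182%, 0.645% and 1.19% passed in brain at days 10, 30 and 50, 1.87%, 0.0% and 1.01% in thorax, 0.0%, 1.54% and 0.0% in gut, and 0.0% in fat body at both later ages. Over the 3 ages together circ2-3 was 0.58 higher in mutant fat body (95% interval 0.15 to 1.01, adjusted p = 0.183). In brain over the 3 ages it differed by -0.10, in thorax by 0.23 (-0.18 to 0.64) and in gut by 0.14 (-0.57 to 0.84), and 0 of 12 tests passed, with 1 at an unadjusted p under 0.05 and 0 calls by DESeq2. Of all circRNAs, 2.33% passed in brain, 1.05% in thorax, 2.51% in gut and 0.202% in fat body.

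The pooled FPKM of the gene lay in different directions between genotypes from tissue to tissue. In gut the sum was 21.2, 23 and 25.1 FPKM in mutants and 14.3, 13.3 and 16.6 FPKM in wDah at days 10, 30 and 50. In thorax it was 68.9, 91.9 and 77.1 FPKM in mutants and 79.4, 114.8 and 94.3 FPKM in wDah. In brain it was 43.0, 48.0 and 49.1 FPKM in mutants and 49.7, 67.9 and 68.2 FPKM in wDah. In fat body it was 260, 338 and 254 FPKM in mutants and 209, 286 and 257 FPKM in wDah. A pooled value has no spread between replicates, so none of these was tested.

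With age the ratio rose in brain, over both genotypes. Later ages are compared with day 10, so the batch stands beside every value. The ratio of circ2-3 at day 10 was 0.151, 0.123 and 0.246 in mutant brains and 0.241, 0.182 and 0.181 in wDah brains. At day 30 it was 0.720, 0.422 and 0.605 in mutant brains and 0.877, 0.457 and 0.533 in wDah brains. At day 50 it was 0.507, 0.591 and 0.520 in mutant brains and 0.528, 0.530 and 0.403 in wDah brains. No library of a later age overlapped with day 10, while days 30 and 50 overlapped.

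The log2 ratio of circ2-3 was 1.64 higher at day 30 than at day 10 (SE 0.23, adjusted p = 1.26e-06) and 1.44 higher at day 50 than at day 10 (SE 0.23, adjusted p = 7.34e-06). circ2-5 was 1.3 higher at both ages (adjusted p = 0.00713 at day 30 and 0.00411 at day 50). circ2-8 was 2.23 higher at day 30 (SE 0.66, adjusted p = 0.0120) and 1.58 higher at day 50 (adjusted p = 0.0845). Of all circRNAs in brain 27.9% passed between days 30 and 10 and 40.0% between days 50 and 10, with medians of 0.44 and 0.64. Between days 50 and 30 no member passed (circ2-3 -0.19, 95% interval -0.64 to 0.26), and 0.172% of all did. Of 36 tests over the tissues 5 passed, all in brain and all higher. The call of circ2-8 at day 30 was lost without wDah brain day 30 replicate 1 (adjusted p = 0.0520) or dilp 2-3,5 brain day 30 replicate 3 (adjusted p = 0.0586). With circular and linear reads scaled apart, circ2-3 still passed, at 1.19 between days 30 and 10 and 0.78 between days 50 and 10 (adjusted p = 8.09e-06 and 0.00222). In that scaling circ2-5 did not pass, at 0.86 and 0.65 (adjusted p = 0.0604 and 0.146), and circ2-8 passed between days 30 and 10 at 1.83 (adjusted p = 0.0251).

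The medians of the linear reads moved further than those of the circular reads. At days 10, 30 and 50 circ2-3 had a median of 28.5, 32 and 33 circular reads per brain library and 144.5, 59.5 and 72 linear reads. Per 10000 circular and linear reads of a library, the linear reads had medians of 5.64, 3.28 and 3.65 and the circular reads 1.12, 1.49 and 1.70. The pooled FPKM of the gene went the other way in brain. At the same ages it was 43.0, 48.0 and 49.1 in mutants and 49.7, 67.9 and 68.2 in wDah. Linear reads of circ2-3 also fell in fat body, with medians of 20.6, 13.1 and 13.3 per 10000. There too the FPKM was higher at day 30 than at day 10 in both genotypes. Why the 2 measures differ was not tested. In brain the fat body markers summed to 873 FPKM in mutants and 1200 FPKM in wDah at day 10, to 1181 and 1682 FPKM at day 30, and to 1052 and 1306 FPKM at day 50. Their part in the result was not tested.

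In fat body no member passed with both genotypes together, where 6.67% of all circRNAs passed between days 30 and 10 and 9.49% between days 50 and 10. With circular and linear reads scaled apart, circ2-5 passed between days 50 and 10 (0.73, adjusted p = 0.00936). In dilp 2-3,5 alone no fat body member passed, where 2.16% and 8.63% of all did. In wDah alone circ2-3 was 1.11 higher at day 30 (adjusted p = 0.00684) and 0.93 higher at day 50 than at day 10 (adjusted p = 0.0383), and circ2-5 (1.12) and circ2-8 (1.41) also passed at day 50 (adjusted p = 0.0211 and 0.0122). There 8.76% and 7.47% of all circRNAs passed. The difference between the genotypes in the change between days 10 and 50 was -1.04, -0.97 and -1.60 for circ2-3, circ2-5 and circ2-8 (adjusted p = 0.326, 0.414 and 0.194), so the changes were not shown to differ, and 0.808% of all circRNAs passed that test with a median of -0.84. In thorax and gut no member passed between any ages, where 10.8% and 12% of all circRNAs passed between days 30 and 10, 17.1% and 13.4% between days 50 and 10, and 0.0% between days 50 and 30. The circ2-3 difference between days 50 and 10 was -0.06 in thorax and 0.13 in gut (-0.74 to 1.0).

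**Figure D4:**
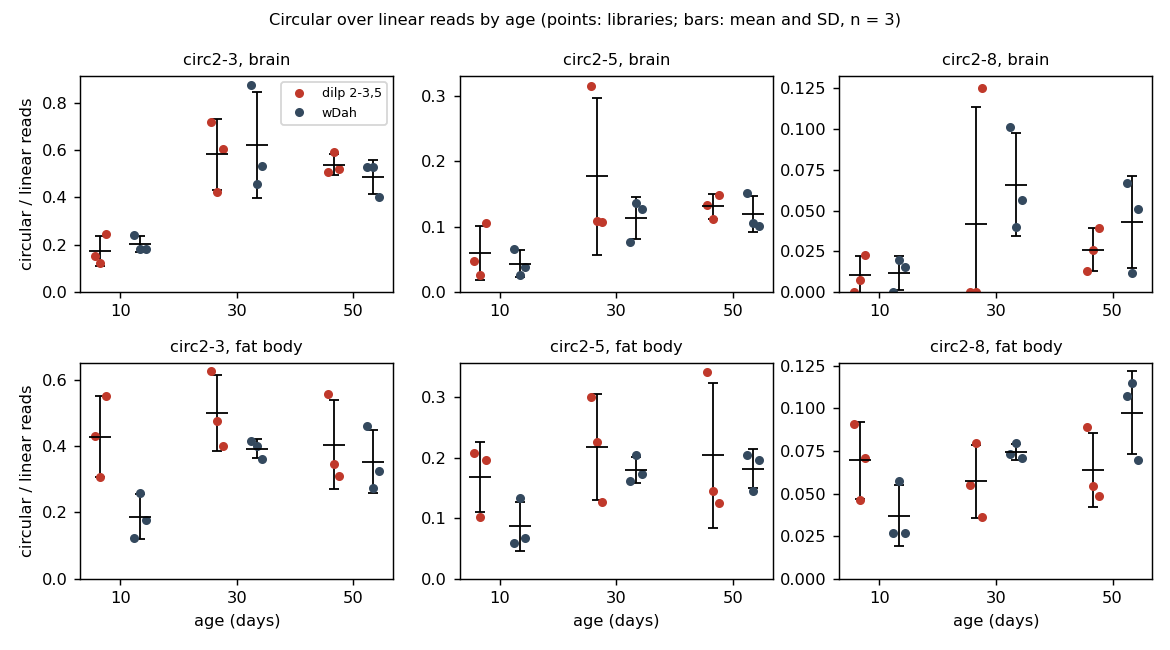
Ratio of circular to linear reads of circ2-3, circ2-5 and circ2-8 (y axis) by age in days (x axis) in brain (upper row) and fat body (lower row), dilp 2-3,5 left of wDah, each point 1 library, with mean and SD (n = 3) as bars. In brain the circ2-3 ratios at day 10 lie between 0.123 and 0.246 and at later ages between 0.403 and 0.877.

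Brain is known as the tissue where fly circRNAs build up most, and the ratio of circ2-5 and circ2-8 was lower in brain than in fat body. In dilp 2-3,5, brain over fat body was -0.87 for circ2-5 (SE 0.29, adjusted p = 0.0139) and -1.57 for circ2-8 (SE 0.41, adjusted p = 0.00117). In wDah it was -0.70 for circ2-5 (SE 0.24, adjusted p = 0.0159) and -0.81 for circ2-8 (SE 0.31, adjusted p = 0.030). By DESeq2 the call of circ2-8 in dilp 2-3,5 held (adjusted p = 0.0363). DESeq2 lost circ2-5 in dilp 2-3,5 (adjusted p = 0.101) and both circ2-5 and circ2-8 in wDah (adjusted p = 0.173 and 0.219). Here 24.4% of all circRNAs passed in mutants, 6.29% as lower in brain, and 28.4% in wDah, 3.94% as lower. circ2-3 did not pass, at -0.25 in mutants (-0.70 to 0.20, adjusted p = 0.531) and 0.44 in wDah (0.08 to 0.80, adjusted p = 0.0572), and in wDah it passed in 4 of 36 fits that left out 1 library. Against thorax circ2-3 was higher in wDah brain by 0.80 (SE 0.21, adjusted p = 0.000676), where 33.8% passed, and by 0.49 in mutant brain (adjusted p = 0.111), where 36.5% passed. Against gut no member passed, where 29.7% of all circRNAs in mutants and 35.0% in wDah did. With circular and linear reads scaled apart, circ2-3 (-0.97, adjusted p = 0.00371) and circ2-8 (-2.13, adjusted p = 0.0148) passed in mutant brain over gut. In wDah brain over fat body that scaling lost circ2-5 (adjusted p = 0.0824) and circ2-8 (adjusted p = 0.0730), and circ2-3 passed as higher in brain (0.63, adjusted p = 0.00114).

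These calls depended on age, while their fits took a change with age common to all tissues. Among day 10 libraries, whose brain ratios were the lowest, circ2-3 in wDah brain was 0.12 below thorax on the log2 scale, the other direction. At that age the mutant brain lay below fat body for all 3 members, by -1.29, -1.46 and -2.66, and all passed. In wDah none passed at that age, with brain over fat body at 0.16 for circ2-3 (adjusted p = 0.914), -0.90 for circ2-5 (adjusted p = 0.154) and -1.53 for circ2-8 (adjusted p = 0.0815). The shares of all circRNAs given above belong to the fits over all ages. For day 10 alone no share is given, so these calls are not set against it. The circ2-5 call was lost without dilp 2-3,5 brain day 10 replicate 1 (adjusted p = 0.0609) in mutants and without wDah brain day 10 replicate 2 (adjusted p = 0.0636) in wDah. The wDah call of circ2-8 was lost without wDah brain day 10 replicate 1 (adjusted p = 0.114), brain day 50 replicate 2 (0.114), fat body day 10 replicate 2 (0.0746) or fat body day 50 replicate 2 (0.0662).

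Polysomes are strings of ribosomes on an RNA, and RNA that sediments with them is the usual pool of translated messages. All 5 circRNAs had reads in the polysome fraction of fat bodies at day 10. circ2-3 had 46, 44 and 25 circular reads with 425, 369 and 627 linear reads in mutant polysomes, and 25, 26 and 19 circular reads with 169, 254 and 522 linear reads in wDah polysomes. The ratios were 0.108, 0.119 and 0.0399 in mutants and 0.148, 0.102 and 0.0364 in wDah. Replicate 3 of each genotype had the most linear reads and the lowest ratio. circ4-5 had 2, 4 and 3 circular reads in mutant polysomes and 0, 0 and 1 in wDah polysomes. circ6-8 had 2, 5 and 3 circular reads in mutant polysomes and 1, 6 and 1 in wDah polysomes.

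The genotypes were not told apart in polysomes. The difference between mutants and wDah was -0.02 for circ2-3, -0.16 for circ2-5 (-1.54 to 1.21), -0.22 for circ2-8, 2.46 for circ4-5 (-0.18 to 5.10, adjusted p = 0.974) and -0.16 for circ6-8. By edgeR 0 of 5 members and 0 of 179 circRNAs passed (0.0%), with 5 circRNAs at an unadjusted p under 0.05. DESeq2 called 0.

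Polysome libraries held fewer circular reads per linear read than total RNA libraries in dilp 2-3,5. The polysome and total RNA libraries were prepared apart, so here and below fraction and preparation cannot be told apart. For circ2-3 and circ2-5 the total RNA ratios are those given above for fat body at day 10. Summed over the 3 mutant libraries of a kind, circ2-8 had 31 circular reads in polysomes and 85 in total RNA. For circ4-5 these were 9 and 20 circular reads, and for circ6-8 they were 10 and 35. Both were listed in the polysome table only, which repeats these total RNA libraries. Their reads in mutant total RNA, the group where both had the most, could count towards that listing. Lower values of circ4-5 and circ6-8 in mutant polysomes are thus not independent of the listing, and no support is drawn from them. In mutants polysome over total RNA was -2.34 for circ2-3 (SE 0.43, adjusted p = 4.74e-06), -1.34 for circ2-5 (SE 0.43, adjusted p = 0.00637), -1.62 for circ2-8 (SE 0.49, adjusted p = 0.00337) and -2.05 for circ6-8 (SE 0.61, adjusted p = 0.00313). circ4-5 was at -1.36 (adjusted p = 0.0719). This was the case for most circRNAs: 57.8% of 206 passed, all lower, with a median of -1.52. With circular and linear reads scaled apart no member passed, and circ2-3 was at -0.64. The call of circ2-5 was lost without mutant total RNA replicate 1 (adjusted p = 0.0924) or 3 (0.0706) or polysome replicate 3 (0.105), that of circ2-8 without total RNA replicate 1 (0.0676), and circ4-5 passed without polysome replicate 2 (0.0481).

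In wDah no member passed, with polysome over total RNA at -1.12 for circ2-3 (-2.24 to 0.00, adjusted p = 0.346), -0.22 for circ2-5, -0.48 for circ2-8, -2.76 for circ4-5 and -0.31 for circ6-8. By edgeR 0 of 204 circRNAs passed (0.0%), with 30 at an unadjusted p under 0.05, and by DESeq2 0. The difference between the genotypes was -1.22 for circ2-3 (-2.60 to 0.15, adjusted p = 0.556), and none of the 5 passed that test, nor did any of 206 circRNAs, with 23 at an unadjusted p under 0.05. That test was added after seeing the data.

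The mix of the 5 RNAs is given as a description. circ2-3 made up 42.6% to 48.1% of the gene's circular reads in the 6 polysome libraries and 53.4% to 65.6% in the 6 total RNA libraries, without overlap. circ2-5 made up 36.1% in polysomes and 24.5% in total RNA, and its libraries overlapped. circ2-8 made up 12.5% in polysomes and 10.2% in total RNA, circ4-5 2.4% and 2.5%, and circ6-8 4.3% and 3.9%.

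**Figure D5:**
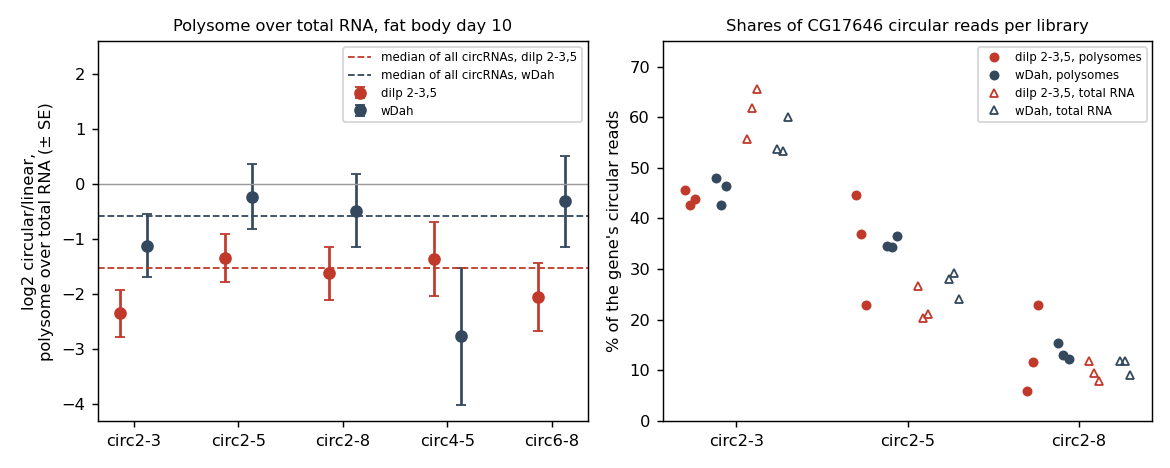
Fat body at day 10, dilp 2-3,5 left of wDah: on the left the log2 difference of circular over linear reads, polysome over total RNA, for the 5 circRNAs with its SE, and the median of all circRNAs as dashed lines (-1.52 in dilp 2-3,5 and -0.58 in wDah); on the right the share (%) of circ2-3, circ2-5 and circ2-8 among the gene's circular reads, each point 1 library, filled for polysomes and open for total RNA. The circ2-3 shares lie between 42.6% and 48.1% in polysomes and between 53.4% and 65.6% in total RNA.

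The circRNAs of other genes whose level over the 24 total RNA groups ran most like circ2-3, by Spearman correlation of circular reads per 10000, were those of cindr (0.908), tn (0.892) and Pdk1 (0.884), of 809 compared. The gene's own circ2-5 and circ2-8 were at 0.881 and 0.887. Among linear transcripts the genes most like CG17646, by Pearson correlation of log2(FPKM + 0.1) over the 24 groups and 11548 genes, were Pal1 (0.991), CG12116 (0.988), CG13607 (0.988), frma (0.983) and CG8317 (0.983). Points share tissue, library and batch, so these are descriptions.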

How the data were processed

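The counts were deposited by the authors, not normalized. For every library and circRNA they give reads over the backsplice (circular) and reads spliced linearly from its ends, after mapping to BDGP6 with STAR 2.5.2b, detection with DCC and their minimum over samples. The polysome table repeats the 6 fat body day 10 total RNA libraries. FPKM were made by the authors with HISAT 2.0.4 for mapping, StringTie 1.3.0 for assembly, then Cufflinks 2.2.1, and deposited as 1 pooled value with limits per group. Further deposited tables, which hold p-values of beta-binomial tests by the authors, were not used.

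For edgeR 4.0.16 under R 4.3.3, circular and linear counts formed separate columns and every library had its own term. The quasi-likelihood F test asked whether circular over linear reads differed, for circRNAs with at least 10 reads of each kind, with Benjamini-Hochberg adjustment over all circRNAs of a comparison and a threshold of 0.05. Differences are log2, intervals are at 95% from the SE. The fits were tested on simulated data. FPKM were compared as log2(FPKM + 0.1), with no test. The few counts of some members limit precision, and p-values measure the spread between the biological replicates.

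Alternatives were DESeq2 1.42.0, no minimum or 30 reads, TMM of circular and linear columns apart, circular reads alone, linear counts over 7000 left out, 1 fit over 18 libraries, each genotype or day 10 alone, a replicate block, and leaving out each library. Named were every CG17646 circRNA, with statistics for circ2-3 and each member that passed, and the nearest circRNAs and genes by correlation. Values of other members were added after they were seen. Members and lists were chosen with earlier results of these data known. Python 3.11.15 was used. No sequencing reads were analysed here.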

Additional observations from a re-analysis of the deposited data

How the results depend on the processing

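Of 30 genotype tests by tissue and age 1 passed, and 0 with DESeq2, no minimum, circular and linear columns scaled apart, circular reads alone by TMM or by depth, or linear counts over 7000 left out (leaving out 1 library: 0 to 3). Over 3 ages 0 passed, and 1 with circular reads alone by TMM. With age 5 passed, 2 with circular reads alone by TMM or by depth, 2 in dilp 2-3,5 alone, 9 in wDah alone and 4 with columns scaled apart. Brain against other tissues gave 5, and 2 by DESeq2, 14 with circular reads alone by TMM, 10 by depth, 3 at day 10 alone and 6 with columns scaled apart. Polysomes against total RNA gave 4, 0 with columns scaled apart, 0 with circular reads alone by TMM, and 2 to 4 without 1 library. The counts here and for the replicate block below are of members alone. The share of all circRNAs that passed in each setting is not given beside them. They show how calls depended on the setting and not whether the members stood out. The fat body level of circ2-3 over brain was 29.8, and 3.58 per circular and linear reads.

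Among values of circ2-3 and of members that passed in the reported fit, where the reported or the alternative value passed, signs turned for circ2-3 brain over thorax with circular reads alone by TMM (-1.96 in dilp 2-3,5 and -0.88 in wDah) and at day 10 alone (-0.12 in wDah), for wDah brain over gut by depth (1.46), for wDah brain over fat body by TMM (-2.56) and by depth (-1.33), and in dilp 2-3,5 polysomes over total RNA with columns scaled apart (0.39 for circ2-5 and 0.10 for circ2-8) and with circular reads alone by TMM (0.67 and 0.31). In the tissue and polysome comparisons signs also turned where neither value passed, among others for circ2-3 in dilp 2-3,5 brain over thorax at day 10 alone (-0.49), with columns scaled apart (-0.35) and by depth (-0.11), in dilp 2-3,5 brain over gut by depth (0.39), in wDah brain over gut by TMM (0.22), and for circ4-5 in dilp 2-3,5 polysomes with columns scaled apart (0.36) and by TMM (0.57). Circular reads alone by TMM turned circ2-5 brain over thorax as well (-2.11 in dilp 2-3,5 and -1.53 in wDah), and both values passed. Of all alternatives to circ2-3 values that had not passed, fits without 1 library included, 72 of 982 had the other sign. Circular reads alone are another quantity than the ratio, and the causes were not tested.

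The replicate numbers were not treated as pairs, since all 3 same-numbered correlations exceeded 0.1 in 0 of 15 comparisons. That rule cannot show that pairing was absent. The 15 were the genotype comparisons by tissue and age and the comparisons with polysomes. Pairs between tissues or between ages were not checked. Between the genotypes in polysomes the correlations were 0.068, 0.027 and 0.227 for replicates 1, 2 and 3. With a replicate block the counts were 0 (genotype by tissue and age), 0 (over 3 ages), 5 (age), 0 (its difference between genotypes), 5 (brain), 0 (genotype in polysomes) and 4 (polysomes over total RNA). Of 422 alternative values of called results, 367 kept direction and passed. These include the fits without 1 library, which share most of their data with the reported fit. Counts of circ4-5, circ6-8 and of all members in gut were too low to show small differences.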

Other observations

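All 14 genes of the ABCG list were in the transcript table, and of the 13 besides CG17646 Atet had a circRNA in total RNA, with 154 circular reads. Over all genes, 666 host genes of circRNAs stood beside 17393 genes in the transcript table. By median FPKM fat body was the highest tissue for CG17646 and for 3 others, CG3164, CG4822 and CG9664. Fat body and thorax overlapped for CG3164 (194 to 329 and 156 to 249 FPKM) and CG9664 (10.7 to 16.6 and 11.1 to 13.1 FPKM). For CG17646 and CG4822 they did not. The share of all genes highest in fat body is not given, so this count is not set against it. The family's pigment transporter gene w, whose loss gives white eyes, was between 51.1 and 598 FPKM in the 12 groups of dilp 2-3,5 and between 0.0121 and 0.500 FPKM in the 12 groups of wDah, as pooled values. The wDah stock is white-eyed. The genotypes thus differed in w RNA as well as in Ilp2, Ilp3 and Ilp5, and the cause of the difference in w was not tested.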
